A study of Mus musculus with 2 samples.

Results

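The genes described here drive DNA replication and mitosis. They are a fixed list of 40 cell cycle genes, 19 that copy DNA or supply its building blocks and 21 that enter, run or complete mitosis. Members were found by symbol. Every probe set, the group of short probes that reads 1 transcript on an Affymetrix array, counted where the platform annotation gave it a member's symbol alone. That rule found 39 of the 40 genes, among 12393 genes on the array, through 70 probe sets. The signal of Ccnb1, cyclin B1, was not analysed here, and only its promoter enters below. All 19 replication genes and 20 mitosis genes were found.

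RNA came from implantation sites, the swellings of pregnant uterus that each hold a conceptus with the maternal tissue around it. The study has a control group of 1 array and a Cbs null group, from homozygous Cbs deficient females, also of 1 array. Cbs encodes cystathionine beta-synthase, which uses homocysteine and serine to make cystathionine. All females were 4 months old, of the C57Bl/6J X OLA129 background, and were killed on day 8 after mating. The labels give the genotype of the mother. The genotype of the conceptus, the deleted part of Cbs and whether sites or animals were pooled are not stated in the labels. The comparison asks how transcripts at these sites differ when the mother lacks the enzyme. With 1 array per genotype there was no test, and every ratio below describes these 2 arrays.

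Cells duplicate their chromosomes once per division. An origin recognition complex with Cdc6 and Cdt1 loads the MCM helicase in G1, polymerases with the PCNA clamp copy the DNA in S phase, and cyclin-dependent kinase 1 with cyclins A and B then drives mitosis, when the spindle parts the copies. Genes for replication are classically switched on by E2F factors before S phase, and genes for mitosis later, through factors that bind CCAAT boxes and the cell cycle homology region. In the early pregnant mouse uterus, stromal cells divide and then turn into decidua, where many cells copy DNA without dividing. Uterine natural killer cells and the conceptus also proliferate there, so an implantation site holds several kinds of cycling cell.

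Values are signal, a brightness on a linear scale, and ratios are log2 of Cbs null signal over control signal. A value below 0 is a lower signal on the Cbs null array. Where a gene had several probe sets, the one brightest on average stood for it. A gene was compared where that mean reached 70.5, the median over all probe sets, which left 7079 genes. Of the 39 members 38 were compared, and each of these was above 70.5 on both arrays. Orc1, a subunit of the origin recognition complex, was too dim for that, with signals of 29.4 (control) and 33.9 (Cbs null). The median ratio of all genes compared was 0.02, and the central 95% of them lay between -0.48 and 0.58. Signals of the 2 brightest probe sets of a gene gave ratios that differed with an SD of 0.30 over 2284 genes. A difference of that size is therefore found within 1 gene on the same pair of arrays.

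Both markers of proliferating cells were present in both groups. Pcna, the sliding clamp of DNA polymerase, read 1645.3 in control and 1550.1 in Cbs null, a ratio of -0.09. Mki67, the Ki-67 protein that coats mitotic chromosomes, read 645.4 and 574.3, a ratio of -0.17. Markers of decidua were present on both arrays. Hoxa10, a regulator of the uterine stroma, read 1159.9 and 1177.1, and the decidual hormone Prl8a2 2542.7 and 3633.6. Tdo2, which degrades tryptophan, read 3129.5 and 1750.3, and the growth factor Bmp2 597.0 and 258.0. The 2 probe sets of Cbs, at 30.3 and 23.8 and at 29.9 and 22.3, were under the signal filter, and these values do not check the genotype. Of 10 genes of the embryo proper 8 were on the array and none passed the filter.

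The replication and mitosis genes were close to equal on the 2 arrays. The median log2 ratio was -0.06 over the 19 replication genes and -0.0062 over the 20 mitosis genes. It was 0.02 over the 7079 genes compared and 0.00 over all 12393 genes, many of them too dim to compare. Of the 38 compared members 35 were within 1.25-fold in either direction, where 84% of all genes compared were. None was at least 2-fold lower, as 0.283% of all genes were, and none at least 2-fold higher, as 0.622% were. Mcm2 alone (1 of 38) was at least 1.5-fold lower in its brightest probe set, against 1.33% of all genes. None was at least 1.5-fold higher, against 2.46% of all genes. A ratio below 0 was found for 26 of the 38, 14 of 18 replication genes and 12 of 20 mitosis genes, against 44.9% of all genes compared. The members with the lowest ratios were the replication genes Mcm2, Rrm2 and Rrm1.

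**Figure D1:**
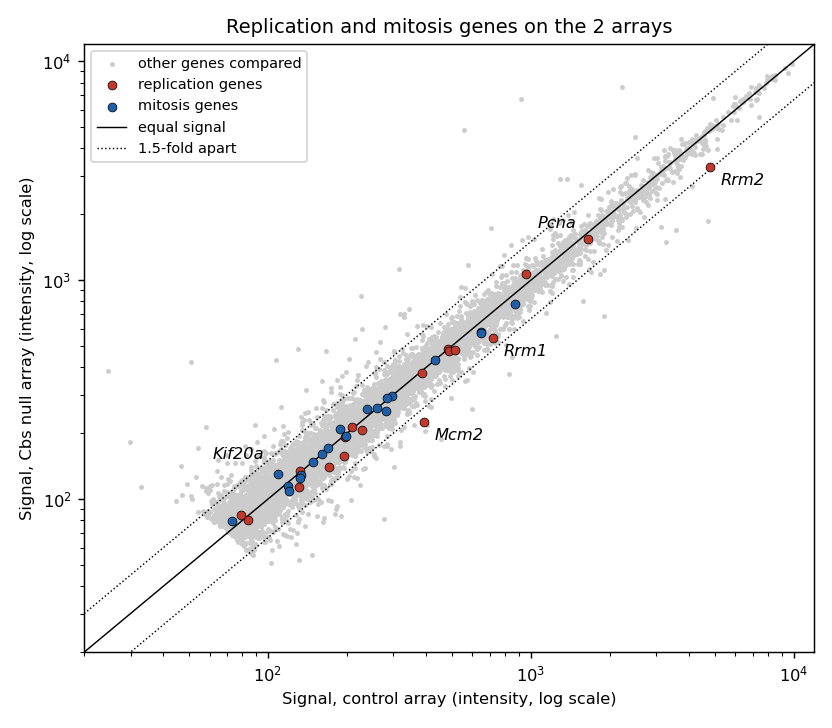
Signal on the control array (horizontal, log scale) against signal on the Cbs null array (vertical, log scale) for the brightest probe set of each of 7079 genes compared, with replication genes in red and mitosis genes in blue. The 20 mitosis genes lie along the line of equal signal, and Rrm2, Rrm1 and Mcm2 lie below it.

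Signal was lower in Cbs null sites in every probe set of Rrm1 and Rrm2. These genes encode subunits of ribonucleotide reductase, the enzyme that turns ribonucleotides into the deoxynucleotides used to build DNA. Its large subunit is encoded by Rrm1 and the small subunit of cycling cells by Rrm2. The brightest probe set of Rrm2 read 4790.4 on the control array against 3291.6 on the other, 1.46-fold lower, with a log2 ratio of -0.54. It is of a type whose probes may match several transcripts, as were 15 of the 58 kept probe sets of members. The other 2 probe sets of Rrm2 read 2395.1 and 1503.1, 1.59-fold lower, and 1351.1 and 737.7, 1.83-fold lower. The brightest probe set of Rrm1 read 718.3 on the control array against 546.7, 1.31-fold lower, with a ratio of -0.39. Its other probe set read 357.1 and 248.5, with a ratio of -0.52. All 5 probe sets of Rrm1 and Rrm2 were thus lower on the Cbs null array. Rrm2b, a reductase subunit outside the list, had a ratio of 0.06. By their brightest probe sets, 1.64% of genes compared were as low as Rrm2 or lower, and 3.94% as low as Rrm1 or lower. Among the 2284 genes with several kept probe sets, 7 including Rrm2 had every one at or below -0.54, and 24 including Rrm1 had every one at or below -0.39. In the top tertile of mean signal, the central 95% of genes lay between -0.41 and 0.46.

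Promoters of members were read from RefSeq on GRCm38.p6, where 34 of the 40 genes matched, in 39 windows of 280 bases, from 250 before the transcript start to 30 after it. The windows of Rrm1 and Rrm2 are shown because every probe set of these 2 genes had a log2 ratio of -0.39 or lower. Mcm6, a helicase subunit, and Cdk1 and Ccnb2, the mitotic kinase and cyclin B2, are shown beside them. Their brightest probe sets had log2 ratios of -0.003, 0.01 and 0.03. The other probe set of Mcm6 was also below 0, at -0.41. Capitals mark the letters TTTGAA of the cell cycle homology region, CCAAT, and 2 E2F-type words, TTTCCCGC and TTTGGCGC, each searched on both strands. Other E2F-type words were not searched or marked. CCAAT on the other strand reads ATTGG. No 2 marked words overlapped in any member window.
Rrm1: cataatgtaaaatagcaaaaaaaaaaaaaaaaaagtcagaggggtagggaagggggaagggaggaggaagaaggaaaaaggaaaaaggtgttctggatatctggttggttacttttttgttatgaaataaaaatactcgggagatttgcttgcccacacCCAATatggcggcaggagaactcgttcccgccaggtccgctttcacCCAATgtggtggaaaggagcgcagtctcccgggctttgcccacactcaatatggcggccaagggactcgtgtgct
Rrm2: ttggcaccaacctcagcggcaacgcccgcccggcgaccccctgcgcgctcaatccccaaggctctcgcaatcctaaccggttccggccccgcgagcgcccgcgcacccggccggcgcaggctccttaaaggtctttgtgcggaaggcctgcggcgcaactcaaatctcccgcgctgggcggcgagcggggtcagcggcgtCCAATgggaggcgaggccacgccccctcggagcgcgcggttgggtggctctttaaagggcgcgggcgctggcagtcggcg
Mcm6: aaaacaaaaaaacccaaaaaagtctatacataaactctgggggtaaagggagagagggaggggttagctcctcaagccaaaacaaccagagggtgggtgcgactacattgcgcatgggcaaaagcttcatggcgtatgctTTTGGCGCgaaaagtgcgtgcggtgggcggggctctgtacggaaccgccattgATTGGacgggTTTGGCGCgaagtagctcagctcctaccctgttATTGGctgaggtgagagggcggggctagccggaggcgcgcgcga
Cdk1: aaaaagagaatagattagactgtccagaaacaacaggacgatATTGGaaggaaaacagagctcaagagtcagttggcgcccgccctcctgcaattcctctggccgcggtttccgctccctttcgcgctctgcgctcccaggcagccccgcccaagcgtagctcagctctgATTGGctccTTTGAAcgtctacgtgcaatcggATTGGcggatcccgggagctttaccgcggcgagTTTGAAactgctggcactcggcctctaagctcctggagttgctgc
Ccnb2: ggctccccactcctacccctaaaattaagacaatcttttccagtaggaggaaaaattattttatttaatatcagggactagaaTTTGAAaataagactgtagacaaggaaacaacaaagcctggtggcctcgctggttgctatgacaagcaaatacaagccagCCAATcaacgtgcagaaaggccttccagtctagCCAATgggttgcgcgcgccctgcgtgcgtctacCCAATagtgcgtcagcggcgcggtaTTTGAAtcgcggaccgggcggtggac
The windows lie at chr7:102441445-102441724 for Rrm1, plus strand, chr12:24708004-24708283 for Rrm2, plus strand, chr1:128359676-128359955 for Mcm6, minus strand, chr10:69352883-69353162 for Cdk1, minus strand, and chr9:70421525-70421804 for Ccnb2, minus strand. Rrm1 held CCAAT at 2 places and Rrm2 at 1, and neither held TTTGAA, TTTCCCGC or TTTGGCGC in this window. Mcm6 held CCAAT at 2 places and an E2F-type word at 2. Cdk1 and Ccnb2 each held CCAAT at 3 places and TTTGAA at 2.

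Over all members, TTTGAA was in 10 of 18 windows of mitosis genes (55.6%), in 2 of 21 windows of replication genes (9.52%) and in 17.2% of all 32851 RefSeq windows of that length. TTTCCCGC or TTTGGCGC was in 7 of 21 replication windows (33.3%), in 0 of 18 mitosis windows and in 1.46% of all windows. Other E2F-type words were not searched, so these shares do not cover every E2F-type word. CCAAT was in 83.3% of mitosis windows, 61.9% of replication windows and 36.1% of all. Mitosis genes with both TTTGAA and CCAAT were Cdk1, Ccnb2, Cdc20, Cenpa, Kif11, Mki67, Prc1, Racgap1 and Top2a. Their brightest probe sets had ratios between -0.17 and 0.16. A match is a stretch of letters and was not tested as a binding site, and its absence says only that these letters are not in the window.

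Subunits of the MCM helicase, the ring that unwinds DNA at the fork, gave mixed readings. In its brightest probe set Mcm2 read 391.7 on the control array against 224.5, a ratio of -0.80, but 179.5 and 209.3 in the other, a ratio of 0.22. That difference of 1.02 between 2 probe sets of a gene was the largest among the members. The brightest probe set of Mcm2 is also of the type that may match several transcripts. Mcm4 read 385.4 and 375.9, a ratio of -0.04, and 370.3 and 260.1, a ratio of -0.51, in a probe set of the type open to cross-matching. Mcm6 followed the same pattern, with 486.0 and 485.0 (-0.003) and then 295.3 and 223.0 (-0.41) in a probe set of that type. In these 3 subunits the probe sets not of that type had ratios from -0.04 to 0.22. Mcm3 and Mcm5 differed, with -0.26 and -0.31 in probe sets not of that type. Over all members, 66.7% of kept probe sets of that type were below 0, and 65.1% of the others. The shares over all genes were 51.5% and 45.9%.

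The other helicase subunits had no reading 1.5-fold apart. Mcm7 was the subunit with the highest signal in Cbs null sites relative to control, at 955.6 and 1066.4, a ratio of 0.16. All 4 of its probe sets were above 0, from 0.10 to 0.30, including the 3 that may match several transcripts. Mcm5 read 195.0 and 157.1 in its single probe set, a ratio of -0.31. Mcm3 read 227.0 and 206.9, a ratio of -0.13, and its 2 other kept probe sets had -0.26 and 0.04. The helicase genes therefore did not shift together in either direction.

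**Figure D2:**
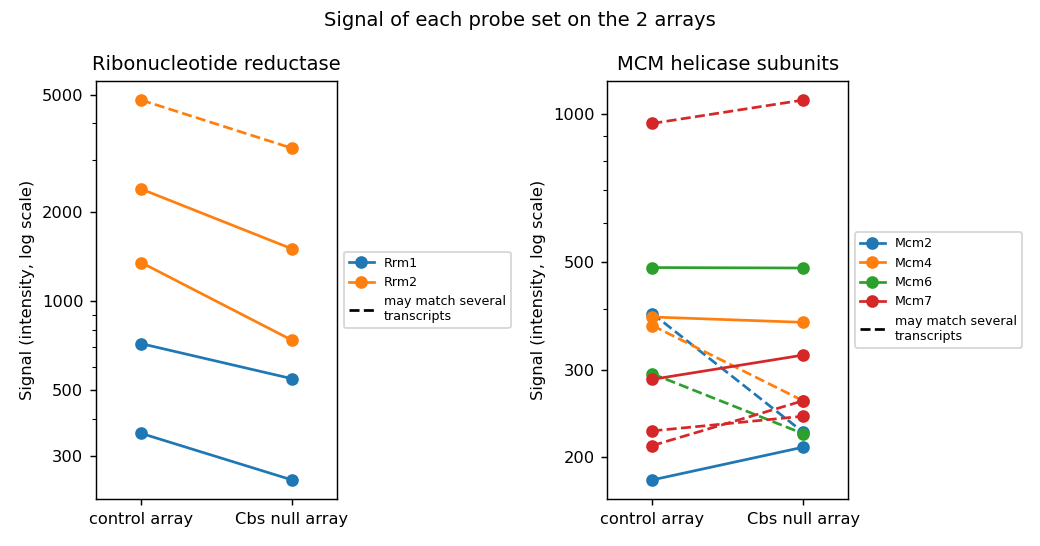
Signal (log scale) of each kept probe set on the control array and the Cbs null array, for Rrm1 and Rrm2 on the left and Mcm2, Mcm4, Mcm6 and Mcm7 on the right. Dashed lines are probe sets that may match several transcripts. All 5 lines of Rrm1 and Rrm2 slope down, from 4790.4 to 3291.6 in the brightest, whereas both directions occur among the helicase subunits.

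Licensing factors, which load the helicase at origins, were close to equal apart from geminin. Cdt1, which brings MCM to the origin, read 488.9 in control and 476.9 in Cbs null, a ratio of -0.04. Cdc6, its partner in loading, read 83.7 and 80.4, a ratio of -0.06. Gmnn, geminin, which blocks Cdt1 after origins have fired, read 171.3 and 140.2, a ratio of -0.29. That is inside the central 95% of all genes.

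Genes of the replication fork itself were near equal. Of the 7 that encode the clamp, its loader, polymerase alpha and the enzymes that finish the lagging strand, all were within 1.25-fold, with a median of -0.03. Rfc3 and Rfc4, subunits of the clamp loader, read 79.3 and 84.6 (0.09), and 132.6 and 135.0 (0.03). The other kept probe set of Rfc4 had -0.14. Pola1, the catalytic subunit of polymerase alpha, read 130.8 and 113.4, the lowest of this group at -0.21. Prim1, the primase that starts each new strand, read 209.2 and 213.8 (0.03), but its other probe set had -0.38. Fen1, the nuclease that trims Okazaki fragments, read 516.3 and 481.9 (-0.10) in a probe set that may match several transcripts, and its other probe set had 0.19. Lig1, the ligase that seals them, read 196.5 and 192.8 (-0.03). The 2 kept probe sets of Rfc4, of Prim1 and of Fen1 thus disagreed in sign.

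Mitotic kinases and cyclins were nearly identical on the 2 arrays. Cdk1, the kinase that drives mitosis, read 430.9 in control and 433.9 in Cbs null, a ratio of 0.01. Its partners Ccna2, at 296.7 and 295.8 (-0.0044), and Ccnb2, at 282.6 and 289.1 (0.03), were as close. Plk1, the polo-like kinase, read 147.9 and 148.5 (0.0058), and Aurka, the aurora kinase of the spindle poles, 133.1 and 129.4 (-0.04). Cdc20, which turns on the anaphase-promoting complex, read 869.2 and 774.6, a ratio of -0.17, with -0.18 in its other kept probe set. It was the lowest of the 6 genes of this group.

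Genes of the spindle checkpoint and the centromere lay between -0.16 and 0.16. Bub1, a checkpoint kinase, read 160.8 and 159.9 (-0.0081). Bub1b, which encodes BubR1, read 132.1 and 124.7 (-0.08), and Mad2l1, which holds back Cdc20, read 282.0 and 252.2 (-0.16). Cenpa, the histone that marks centromeres, was the highest, at 188.0 and 210.1 (0.16). Of the chromosomal passenger complex, Birc5, survivin, read 260.2 and 259.9 (-0.0017). Aurkb, its kinase, read 119.3 and 114.5 (-0.06), with -0.42 in a second, dimmer probe set, and both may match several transcripts.

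Spindle, midzone and chromosome genes were spread on both sides of 0, with 4 below and 4 above. Kif20a, a kinesin of the central spindle, had the highest ratio of all compared members, at 108.8 and 130.5 (0.26). Kif11, the kinesin that pushes spindle poles apart, read 72.7 and 79.7 (0.13), close to the signal filter. Prc1, which bundles midzone microtubules, read 237.8 and 256.7 (0.11) but had -0.14 in its other probe set. Racgap1, of the centralspindlin complex, read 119.8 and 109.2 (-0.13) but had 0.19 in its other probe set. Tpx2, which activates Aurka, read 169.9 and 172.0 (0.02), and Nusap1, which binds spindle microtubules, read 197.5 and 195.1 (-0.02). Top2a, the topoisomerase that untangles chromosomes, read 646.7 and 578.4 (-0.16), close to the ratio of Mki67.

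**Figure D3:**
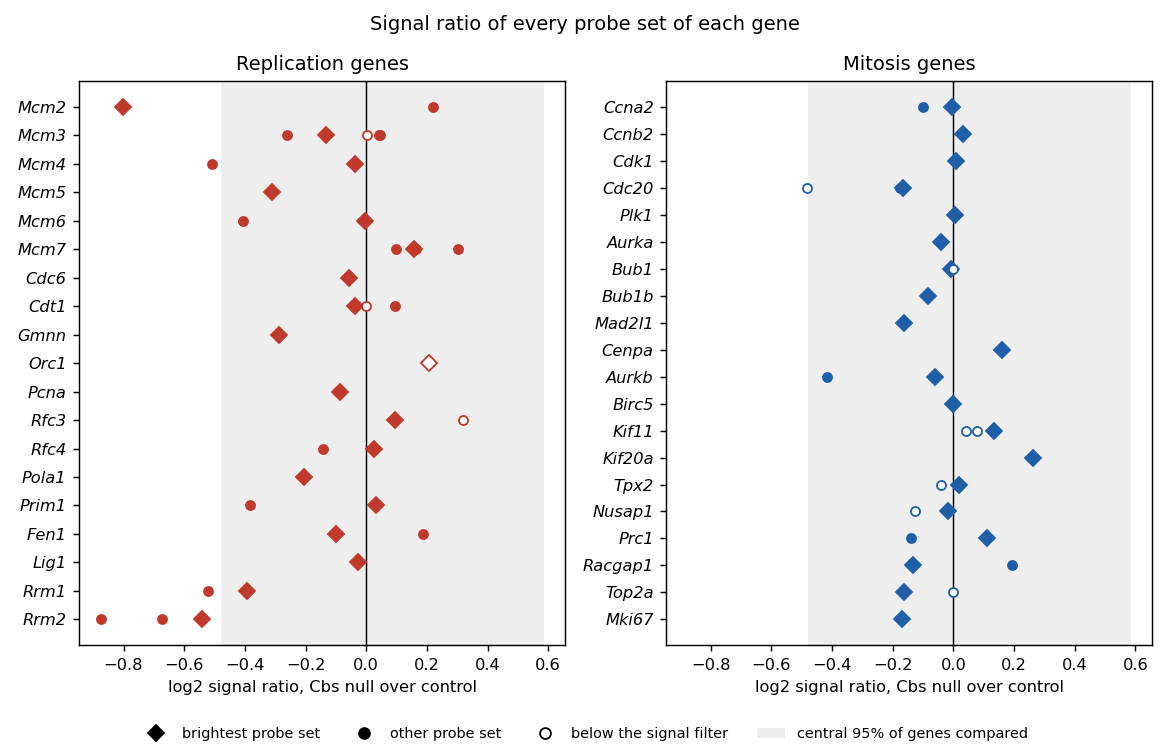
Log2 signal ratio of every probe set of each gene, replication genes on the left and mitosis genes on the right. Diamonds are the brightest probe set, circles the others, open symbols are below the signal filter of 70.5, and grey is the central 95% of genes compared, from -0.48 to 0.58. The diamonds of mitosis genes lie between -0.17 and 0.26, and the 3 filled symbols of Rrm2 all lie left of the grey band.

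Probe sets of the same gene gave a measure of how far readings of the same 2 arrays disagree. It holds no variation between animals or between arrays. The 2 brightest probe sets of a member gave ratios that differed with an SD of 0.37, against 0.30 over all such genes. Of the 16 members with several kept probe sets, 7 had all of them below 0, where 27.1% of such genes did. Mcm7 alone had all above 0, against 26.9%, and 8 had opposite signs, against 45.8%. Over single probe sets, 38 of 58 were below 0, against 46.8% of all 10406 kept, and their median was -0.05 against 0.02. At least 1.5-fold lower were 3 of the 58, 2 of Rrm2 and 1 of Mcm2, against 1.65% of all kept.

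Other genes of the cell cycle, in lists drawn up by function, had medians near 0. Of 40 further replication genes 31 were compared, with a median of -0.02 and 17 below 0, against 44.9% of all genes. None was at least 1.5-fold lower or higher in its brightest probe set, against 1.33% and 2.46% of all genes. A second probe set of Pold3, a polymerase delta subunit, read 105.4 and 51.3 (-1.04), while its brightest had 0.15. Within 1.25-fold were 30 of the 31, against 84% of all genes. The lowest was Cdc7, the kinase that fires origins, at 285.2 and 231.0 (-0.30), then Prim2 (-0.28) and Timeless (-0.21). However, the other probe set of Prim2 had 0.24. The highest was Orc2, an origin recognition subunit, at 75.1 and 100.5 (0.42), then Tk1, thymidine kinase (0.30), and Pola2 (0.23). Of 57 further mitosis genes 38 were compared, with a median of -0.07. A ratio below 0 was found for 24 of them, against 44.9% of all genes, and 28 were within 1.25-fold. Smc4, a condensin subunit, was lowest at 824.5 and 599.4 (-0.46), but its other probe sets had -0.15 and 0.07. Next were Ect2, which starts cytokinesis (-0.41), and Pbk (-0.40). Cenpn, a centromere protein, was the 1 gene at least 1.5-fold higher, at 61.8 and 99.7 (0.69), and passed the filter only through its Cbs null value, while its other probe set had -0.31. Stmn1 (0.33) and Fzr1 (0.31) came next.

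Regulators of entry into the cycle had medians near 0. The 16 compared genes of G1 had -0.04, and the 11 inhibitors and quiescence genes had -0.03. Within 1.25-fold were 12 of the 16 and 9 of the 11, against 84% of all genes compared. Mycn, a growth-promoting transcription factor, had the highest G1 ratio, at 67.9 and 109.2 (0.69), and passed the filter only through its Cbs null value. E2f6 (0.32) and Myc (0.24) followed, and E2f8 (-0.47), Ccne2, cyclin E2 (-0.38), and Rbl1 (-0.34) were lowest. Ccne2, at 86.1 and 66.1, passed the filter only through its control value. Mdm2, the ubiquitin ligase of p53, was the lowest of the inhibitor list in both probe sets, at 164.1 and 115.4 (-0.51) and at -0.49 in the other. Cdkn2d (-0.36) and Cdkn1c, the inhibitor p57 (-0.28), came next, and Btg2 (0.21), Ccng2 (0.11) and Cdkn1b, p27 (0.06), were highest. Of 10 histone genes 4 were compared, with H2az1, the variant H2A.Z, at 1960.9 and 2528.8 (0.37). Its other probe set had -0.23. H1f2 had 0.26, H2aw 0.13 and H2ax -0.17.

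Markers of several cell types had ratios farther from 0 than the cell cycle members. Of 13 uterine natural killer cell markers on the array 12 were compared and 11 of these were below 0, from -1.46 for Gzmc to 0.05 for Klrk1. Of these 12 markers, 1 passed the filter only through its control value. The summed signal of the 13 was 19180.1 on the control array against 8874.7, and none was at the floor. The 10 uterine epithelium markers ran from -0.02 for Cdh1 to 3.12 for Spink1 and summed to 6409.2 and 22949.9. Of that sum Spink1, Prss28 and Prss29 gave 3695.3 and 19165.6, and the other 7 gave 2713.9 and 3784.3. The 9 macrophage markers summed to 5223.6 and 7142.5, from -0.0049 to 0.97. Decidual markers went both ways, from -1.21 for Bmp2 to 0.52 for Prl8a2, with a median of -0.02 and 2 of 8 at least 1.5-fold lower. Smooth muscle markers lay between -0.19 and 0.07 and endothelial markers between -0.36 and 0.26. The 4 compared markers of embryonic red cells had a median of 0.90, from 0.57 for Alas2 to 1.33 for Hba-x. The 5 compared trophoblast markers had a median of 1.23, from -0.58 for Eomes to 2.62 for Ceacam11, and 3 of them passed the filter only through their Cbs null value. The lower natural killer cell signal stood beside the lower Rrm1 and Rrm2 signal on the same array, and its part in those ratios was not tested. In tissue of mixed cells, fewer cycling cells and less RNA per cell cannot be told apart.

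**Figure D4:**
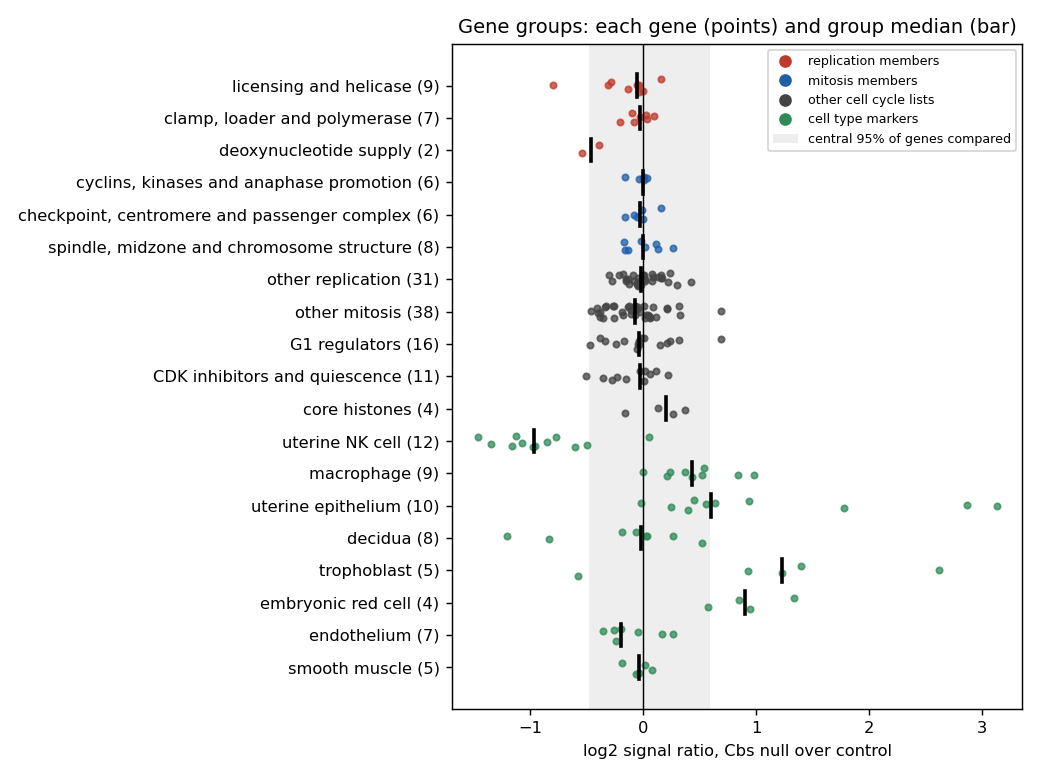
Log2 signal ratio of each compared gene (points) and the median of each group (bar), for the replication members in red, the mitosis members in blue, other cell cycle lists in dark grey and cell type markers in green, with the number of genes compared in brackets. The cell cycle groups centre near 0 apart from the 2 genes of deoxynucleotide supply, at a median of -0.47, and 4 histone genes, at 0.20. Markers of natural killer cells centre at -0.97 and those of uterine epithelium at 0.59. Of the 5 trophoblast markers shown, 3 passed the filter only through their Cbs null value.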

How the data were processed

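Signals of 2 arrays, 1 control and 1 Cbs null, were read from the deposited table. Its values are intensity on a linear scale, and GCOS 1.4 is the software that the submitters' processing notes name. Its algorithm, any detection calls and the genome build were not given in the sources used here. A 2% trimmed mean was 200.08 on both arrays, so no further scaling was done. Of 22690 probe sets 64 controls were left out, and of the rest 20380 had 1 symbol, 691 several and 1555 none. Only those with 1 symbol were used. Values under 14.3, the 25th percentile, were raised to that floor. Genes were compared where mean signal reached 70.5. Log2 ratios were computed with Python 3.11 and tested on simulated data. Precision is limited by the number of arrays, with no replicate. All 40 members were named, and of each other cell cycle list the 3 highest and 3 lowest compared genes. Symbols of 4 histone genes were updated through RefSeq gene identifiers of GRCm38.p6. Members, lists and thresholds were chosen with earlier results of these data known. Alternatives covered scaling, floor, filter and choice of probe set. The promoter genes shown, and the list of nucleotide genes in the closing section, were chosen after the members' values were seen.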

Additional observations from a re-analysis of the deposited data

How the results depend on the processing

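Each result was recomputed under 11 alternatives, and values were compared with the SD of 0.21 per probe set within these arrays. The members gave 1 value past 1.5-fold in the lower direction and none in the higher direction under each alternative, but not the same gene. With the median over probe sets, or with those open to several transcripts left out, that gene was Rrm2, at -0.67. Mcm2 then had -0.29 and 0.22, so its direction turned in the second case. Mcm4 went from -0.04 to -0.27 with the median over probe sets. With probe sets open to several transcripts left out, Fen1 went from -0.10 to 0.19 and Prc1 from 0.11 to -0.14. Rrm2 lay between -0.67 and -0.54 and Rrm1 between -0.46 and -0.37 over all alternatives. The replication median of -0.06 became -0.13 with the median over probe sets, and -0.04 without Rrm1 and Rrm2, an alternative added after the data were seen. The median over probe sets also took the inhibitor list to -0.16. With the filter at the 75th percentile, 14 of 18 members were below 0, against 48.1% of all genes past that filter. The other mitosis genes then had -0.16 and the 5 remaining G1 regulators 0.15. With the filter at the 25th percentile the inhibitor list had -0.092. No paired analysis was possible because each group has 1 array. Dim genes such as Orc1 are limited by signal over background.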

Other observations

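Other genes of deoxynucleotide and nucleotide supply, including makers of ribonucleotides, were read after the values of Rrm1 and Rrm2 were seen, in a list of 12 of which 10 were compared. Their median log2 ratio was 0.0096, and 3 were at least 1.5-fold lower in their brightest probe set, where 1.33% of all genes were. Dck, the kinase that salvages deoxycytidine, read 574.3 in control and 350.0 in Cbs null, a ratio of -0.71, and its other kept probe set had -0.76. Samhd1, which breaks deoxynucleotides down, read 560.3 and 346.1, a ratio of -0.70. Its other kept probe sets disagreed, at -0.54 and, in one that may match several transcripts, 0.05. Nme1, a nucleoside diphosphate kinase, had -0.64 in a probe set that may match several transcripts and -0.12 in the other. In contrast, Rrm2b, the small reductase subunit that does not depend on the cell cycle, read 129.7 and 134.8, a ratio of 0.06. Of the rest, Cad had 0.30, Dhodh 0.23, Cmpk1 0.11, Nme2 0.02, Gart 0.0043 and Umps -0.19. The values of Cad and Dhodh come from probe sets that may match several transcripts. Dhodh, at 69.7 and 81.9, passed the filter only through its Cbs null value. Other kept probe sets differed, with -0.04 for Cad, -0.27 and -0.33 for Gart, and 0.18 for Umps. Tk1 and Dtymk, kinases of the thymidine route to deoxynucleotides, had 0.30 and 0.09. Dut and Tyms, from the same list of further replication genes, went the other way. Dut had -0.15, and Tyms had -0.55 in its brightest probe set, which was under the signal filter. Supply genes thus went both ways. These genes were picked by function after the result was known, and no replicate stands behind them.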
